A study of Mus musculus with 10 samples.

Results

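Mbp, Mog, Mag, Mobp, Cnp, Olig1, Olig2, Pdgfra and Cspg4 mark the oligodendrocyte lineage, the cells that wrap axons in myelin and the precursors from which they arise. These 9 genes were taken by symbol from 48526 gene identifiers, and all 9 were among the 17007 genes tested. RNA was measured in microdissected dentate gyrus, the granule neuron region of the hippocampus, from C57Bl/6 mice aged 8 weeks. An adeno-associated virus of serotype 9 had carried green fluorescent protein (GFP) into the left and right dentate gyrus for 5 control libraries and Sox11, a transcription factor of newborn neurons, for 5 others. All 10 libraries thus came from tissue injected with virus, the labels do not say whether each came from a separate mouse, and no source used here gives the promoter of the viral gene, the cells it reached or the time from injection to dissection. The lineage markers serve as a check of the cell make-up of each library and of whether it differed with the virus.

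Oligodendrocyte precursors divide in the adult brain, carry the receptor PDGFRA and the proteoglycan NG2 (the product of Cspg4), and are spread through grey and white matter alike. Those that differentiate stop making these surface proteins and switch on the genes of compact myelin, so that mature cells are most dense where axons run in bundles. Olig1 and Olig2 are transcription factors present along the whole lineage. In bulk tissue, fewer cells of a type and less RNA per cell cannot be told apart.

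The libraries carry the authors' column numbers: 1, 3, 4, 5 and 6 for GFP, 1, 2, 3, 6 and 7 for Sox11. Each held 45100154 to 68769808 reads in genes. Normalized counts are reads divided by a scaling factor of the library. Sox11 itself ranged from 1364 to 1634 normalized counts under GFP and from 9803 to 20434 under Sox11, so each library matched its label. Prox1, the transcription factor that marks granule neurons, was at 13354 to 22834 over the 10 libraries. GFP 3 stood apart in markers of the choroid plexus, the secretory lining of the ventricles: the 12 listed genes, none of them at 0 in any library, summed to 394169 normalized counts there and to 820 to 3524 elsewhere. Without GFP 3, 0 of the 9 markers passed the test described below (lowest limma adjusted p = 0.244).

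The promoters of 2 mature and 2 precursor markers are shown because these genes differ in how much they vary between libraries. Each line gives the 250 bases before the RefSeq start nearest to the annotated gene start on GRCm38.p6, 5′ to 3′ on the strand of the gene, and capitals mark matches to ACAANG on either strand, the core of the sites that Sox proteins bind. The windows are chr7:30914864-30915113 on the minus strand for Mag, and on the plus strand chr9:120149492-120149741 for Mobp, chr5:75152001-75152250 for Pdgfra and chr9:56864854-56865103 for Cspg4. The RefSeq start lies 10 bases inside the annotated gene for Mag, 35 for Mobp and 71 for Cspg4, and 41 bases before it for Pdgfra. The bases that follow the Pdgfra start were not found in its annotated transcripts.
Mag: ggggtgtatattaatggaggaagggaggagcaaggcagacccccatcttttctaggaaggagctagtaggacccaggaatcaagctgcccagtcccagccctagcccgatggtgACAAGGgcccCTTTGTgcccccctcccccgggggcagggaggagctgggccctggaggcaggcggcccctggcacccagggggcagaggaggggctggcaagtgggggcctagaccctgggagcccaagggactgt
Mobp: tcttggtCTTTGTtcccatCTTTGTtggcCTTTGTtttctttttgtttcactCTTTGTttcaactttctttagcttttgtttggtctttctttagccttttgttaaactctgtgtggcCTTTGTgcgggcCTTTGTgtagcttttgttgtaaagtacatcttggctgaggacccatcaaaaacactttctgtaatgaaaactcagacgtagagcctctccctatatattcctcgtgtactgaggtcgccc
Pdgfra: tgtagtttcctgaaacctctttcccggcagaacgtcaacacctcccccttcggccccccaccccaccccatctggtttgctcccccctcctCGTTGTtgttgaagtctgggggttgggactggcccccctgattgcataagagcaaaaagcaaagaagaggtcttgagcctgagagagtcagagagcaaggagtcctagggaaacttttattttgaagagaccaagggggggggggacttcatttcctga
Cspg4: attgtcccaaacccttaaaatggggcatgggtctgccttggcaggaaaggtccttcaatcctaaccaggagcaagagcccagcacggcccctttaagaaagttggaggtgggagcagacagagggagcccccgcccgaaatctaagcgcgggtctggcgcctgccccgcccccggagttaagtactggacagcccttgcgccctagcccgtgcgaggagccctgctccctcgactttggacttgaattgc
Windows were found for 7 of the 9 markers, and 6 of the 7 held at least 1 match, against 36.3% of the 32851 windows in the table. Mobp held 6, all of them spelled CTTTGT on the strand of the gene, and only 5 of the 32851 windows held that many. Mag held 2, Mog, Cnp, Olig2 and Pdgfra held 1 each, and Cspg4 held none. A match is a description of these letters and not a site of binding, and its relation to the variation between libraries was not tested.

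None of the 9 markers passed the test between the Sox11 and the GFP libraries, where 19.0% of all tested genes did, 9.65% higher and 9.36% lower (limma, adjusted p below 0.05 over all 17007 genes). At an unadjusted p below 0.05 the count was also 0 of 9, against 32.1% of all genes, and edgeR and DESeq2 on the recovered reads called 0 of 9 too, against 19.0% and 24.7%. The values of the groups overlapped for each of the 9, while 15.9% of all genes had no overlap. The precision of this result differs between the markers. The intervals were narrow for the precursor markers and the Olig factors and wide for the myelin genes, whose libraries differed from each other within either group.

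Myelin basic protein, the product of Mbp, holds the inner faces of the myelin membrane together. Mbp (ENSMUSG00000041607, chromosome 18, 82475146 to 82585637, plus strand, GRCm38) had 53454, 58773, 57716, 40029 and 35055 normalized counts in GFP 1, 3, 4, 5 and 6. In Sox11 1, 2, 3, 6 and 7 it had 73851, 41409, 28241, 42270 and 35565. The highest and the lowest of the 10 libraries, Sox11 1 and Sox11 3, both belonged to the Sox11 group, so the GFP range lay within the Sox11 range. The means were 49005 ± 10797 and 44267 ± 17464 normalized counts (SD, n = 5 each). The log2 fold change, Sox11 minus GFP on the log2(normalized count + 1) scale used throughout, was -0.19 (SE 0.25, 95% interval -0.75 to 0.36, limma adjusted p = 0.667).

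Mobp, which encodes another small basic protein of compact myelin, varied most of the 9 (ENSMUSG00000032517, chromosome 9, 120149707 to 120181484). Its GFP libraries held 15585, 20158, 18600, 9372 and 9209 normalized counts, in the order given above, and its Sox11 libraries 23985, 12140, 6940, 12925 and 10171. The highest library exceeded the lowest by 3.46-fold. GFP 1, 3 and 4 and Sox11 1 were the 4 highest, and GFP 5 and 6 and Sox11 3 the 3 lowest, so that the same division ran through both groups. Its log2 fold change was -0.18, with a 95% interval from -0.96 to 0.60 (limma adjusted p = 0.790). This interval was the widest of the 9.

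Mag and Mog encode glycoproteins of the myelin surface, one facing the axon and the other on the outermost layer. Mag (ENSMUSG00000036634, chromosome 7, 30899176 to 30914873) had 4047, 3607, 4053, 2312 and 2178 normalized counts under GFP and 4747, 3242, 2231, 2502 and 2265 under Sox11. Mog (ENSMUSG00000076439, chromosome 17, 37010743 to 37023398) had 1444, 1565, 1613, 892 and 755 in the GFP libraries and 1799, 1181, 789, 961 and 940 in the Sox11 libraries. Both genes were highest in Sox11 1, followed by GFP 1, 3 and 4, then Sox11 2. Their log2 fold changes were -0.12 (SE 0.26) for Mag and -0.14 (SE 0.28) for Mog, with limma adjusted p-values of 0.818 and 0.804.

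Cnp encodes an enzyme of the non-compact myelin loops that is also made by immature cells of the lineage. Cnp (ENSMUSG00000006782, chromosome 11, 100574904 to 100591729) had 8324, 8261, 9093, 6249 and 5419 normalized counts under GFP and 10010, 7570, 5762, 6032 and 5930 under Sox11. The same 4 libraries, Sox11 1 and GFP 4, 1 and 3, were highest, over a smaller range of 1.85-fold from lowest to highest. Its log2 fold change was -0.09 (SE 0.19, 95% interval -0.50 to 0.33, limma adjusted p = 0.818).

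The summed level of these 5 myelin genes was 52615 to 92365 normalized counts under GFP and 43962 to 114391 under Sox11. It made up between 0.0841% and 0.217% of a library. These genes varied together over the libraries, as given below, so their fold changes are not 5 separate observations. All 5 log2 fold changes lay below 0, with a median of -0.14 against -0.0063 over all tested genes. The size rested on single libraries: without Sox11 1 the 5 values ran from -0.43 (Mobp) to -0.22 (Cnp), with a lowest limma adjusted p of 0.181, and without Sox11 3 from -0.05 (Mbp) to 0.02 (Mobp).

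**Figure D1:**
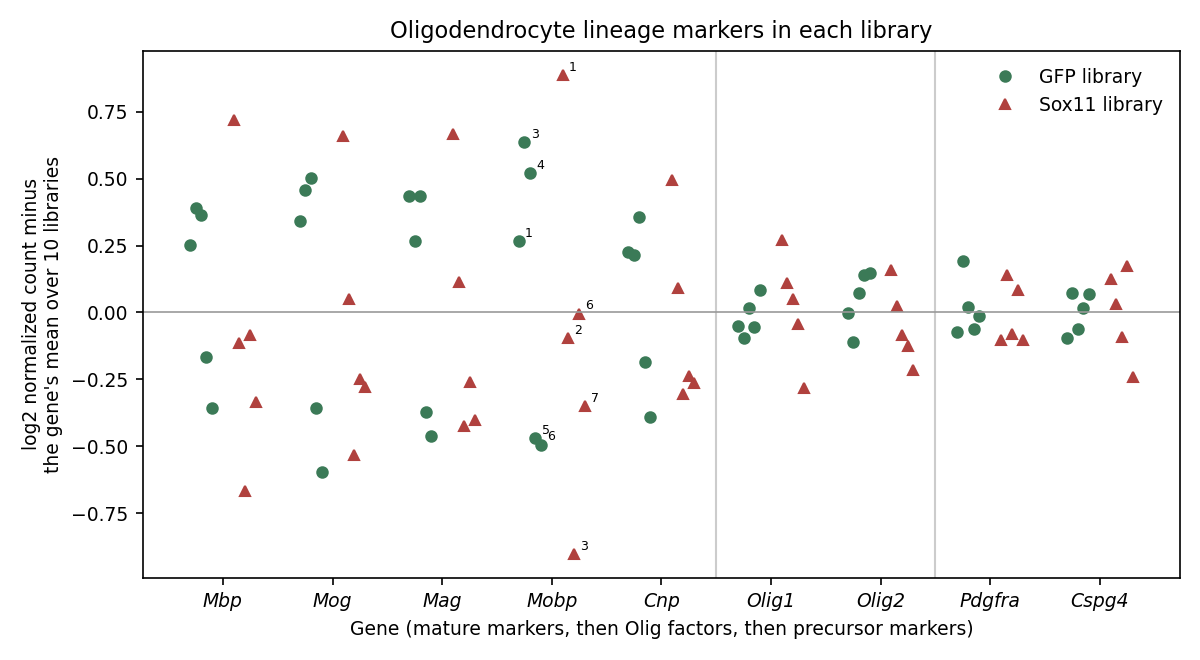
Each point is 1 library of 1 gene, given as its log2 normalized count minus the gene's mean over the 10 libraries, with circles for GFP and triangles for Sox11. The numbers beside the Mobp points are the library numbers. The 5 myelin genes on the left spread over a range of 1.85- to 3.46-fold with GFP 1, 3 and 4 and Sox11 1 high, while the 4 genes on the right lie close to 0 in both groups.

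Olig1 and Olig2, neighbouring genes on chromosome 16, varied less than the myelin genes. Olig2, needed for oligodendrocyte fate (ENSMUSG00000039830, 91225457 to 91228677), had 869, 805, 915, 957 and 962 normalized counts under GFP and 970, 883, 819, 796 and 748 under Sox11. Olig1, which acts in maturation (ENSMUSG00000046160, 91269772 to 91271933), had 3358, 3255, 3522, 3349 and 3691 in the GFP libraries and 4196, 3760, 3606, 3375 and 2863 in the Sox11 libraries. GFP 5 and 6, low in each myelin gene, held the highest Olig2 values of the GFP group, and GFP 6 the highest Olig1 value. Sox11 1 was the highest and Sox11 7 the lowest library for both genes. The log2 fold changes were 0.04 (95% interval -0.15 to 0.23) for Olig1 and -0.10 (-0.27 to 0.07) for Olig2, with limma adjusted p-values of 0.812 and 0.437.

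Pdgfra, the receptor through which platelet-derived growth factor keeps precursors dividing, was among the steadier genes (ENSMUSG00000029231, chromosome 5, 75152292 to 75198215). It had 3888, 4666, 4149, 3915 and 4053 normalized counts under GFP and 3803, 4502, 3869, 4334 and 3807 under Sox11. The highest library, GFP 3, exceeded the lowest by 1.23-fold. The means of 4134 ± 316 and 4063 ± 330 (SD, n = 5 each) gave a log2 fold change of -0.03 (SE 0.07, 95% interval -0.17 to 0.12, limma adjusted p = 0.853). In linear terms the interval for Pdgfra ran from 0.888-fold to 1.09-fold.

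Cspg4, whose product NG2 sits on the surface of precursors and also of pericytes (ENSMUSG00000032911, chromosome 9, 56865033 to 56899870), had 814, 916, 834, 880 and 914 normalized counts under GFP. Under Sox11 it had 949, 889, 818, 980 and 736. The group means, 871 ± 46.4 and 874 ± 99.4 (SD, n = 5 each), were the closest of the 9 genes. The log2 fold change was -0.0012 (SE 0.08, 95% interval -0.18 to 0.17, limma adjusted p = 0.995). Summed pericyte and fibroblast markers, all 10 of them found and none at 0, ran from 8001 to 27652 normalized counts under GFP and from 8794 to 23459 under Sox11. Their part in the level of Cspg4 or Pdgfra was not tested.

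Levels can be compared between genes per kilobase of exon. In the GFP group Mbp stood highest with 5786 ± 1275 normalized counts per kilobase (SD, n = 5). Mobp (2130 ± 745) and Cnp (2053 ± 428) came next and differed by less than their spread. Olig1 followed at 1589 ± 79.7, then Mag (796 ± 228) and Mog (736 ± 235), which again lay within each other's spread. Pdgfra reached 412 ± 31.5, Olig2 356 ± 25.9 and Cspg4 73.0 ± 3.89, all as normalized counts per kilobase. The Sox11 group ran from 5227 per kilobase for Mbp to 73.3 for Cspg4 in the same order, except that Cnp (1940) stood just above Mobp (1932). Exon length is the union over all annotated isoforms, so a gene with long rare exons is placed too low.

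**Figure D2:**
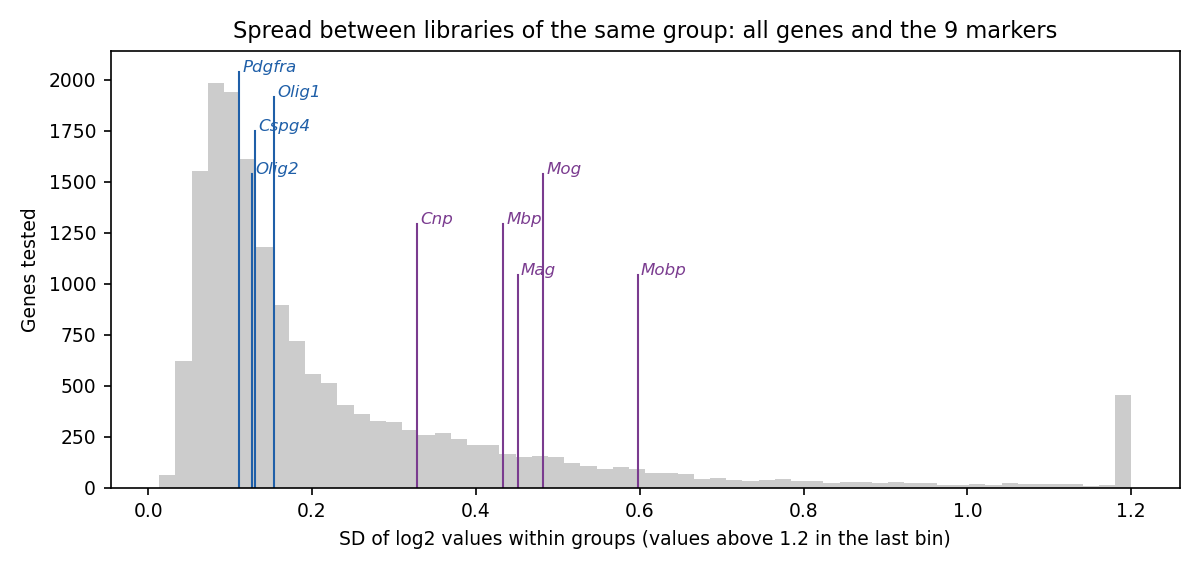
Histogram of the SD of log2 values within groups over the 17007 tested genes, with vertical lines for the 9 markers (purple for myelin genes, blue for the others, line heights arbitrary). The myelin genes lie between 0.33 and 0.60, to the right of the median of 0.14, and the other 4 between 0.11 and 0.15.

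The spread between libraries of the same group separated the markers by role. The within-group SD of log2 values was 0.60 for Mobp, 0.48 for Mog, 0.45 for Mag, 0.43 for Mbp and 0.33 for Cnp, at percentiles 78.3 (Cnp) to 91.8 (Mobp) of all tested genes. For Olig1, Cspg4, Olig2 and Pdgfra it was 0.15, 0.13, 0.13 and 0.11, at percentiles 35.5 (Pdgfra) to 53.0 (Olig1). The median gene had 0.14. The precursor markers and Olig factors thus varied about as much as a typical gene, and the myelin genes more.

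The myelin genes varied together. Over the 10 libraries Pearson's r of their log2 values was 0.91 to 0.99 in the 10 pairs among them and Spearman's rho 0.89 to 0.99. The permutation p-values, adjusted over all 36 pairs of the 9 markers, were at most 0.00173 for r and 0.00378 for rho, and r stayed at 0.84 or more without the 2 libraries farthest from the median of the first gene. In the 10 pairs of a myelin gene with a precursor marker r was 0.14 to 0.36 (lowest adjusted permutation p = 0.651), and in the 10 pairs with an Olig factor 0.17 to 0.42 (lowest 0.586). Olig1 and Olig2 had r = 0.72 (adjusted permutation p = 0.045) and rho = 0.66 (0.146), and r was 0.36 without the 2 farthest libraries. Pdgfra and Cspg4 had r = 0.47 (adjusted permutation p = 0.461) and rho = 0.42 (0.646), and r was 0.52 without the 2 farthest. All libraries share the scaling of their counts, and a p that misses the threshold does not show that genes vary independently.

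Taken as the mean of standardized log2 values, the 5 myelin genes and the 2 precursor markers gave r = 0.25 over the 10 libraries (permutation p = 0.471) and rho = 0.38 (permutation p = 0.279), and r = 0.39 without the 2 libraries farthest from the median, GFP 4 and Sox11 1. The relation did not pass the threshold. GFP 3 was high in both, Sox11 1 in myelin genes, and Sox11 6 in precursor markers. With 5 libraries a group, no correlation was computed within a group.

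**Figure D3:**
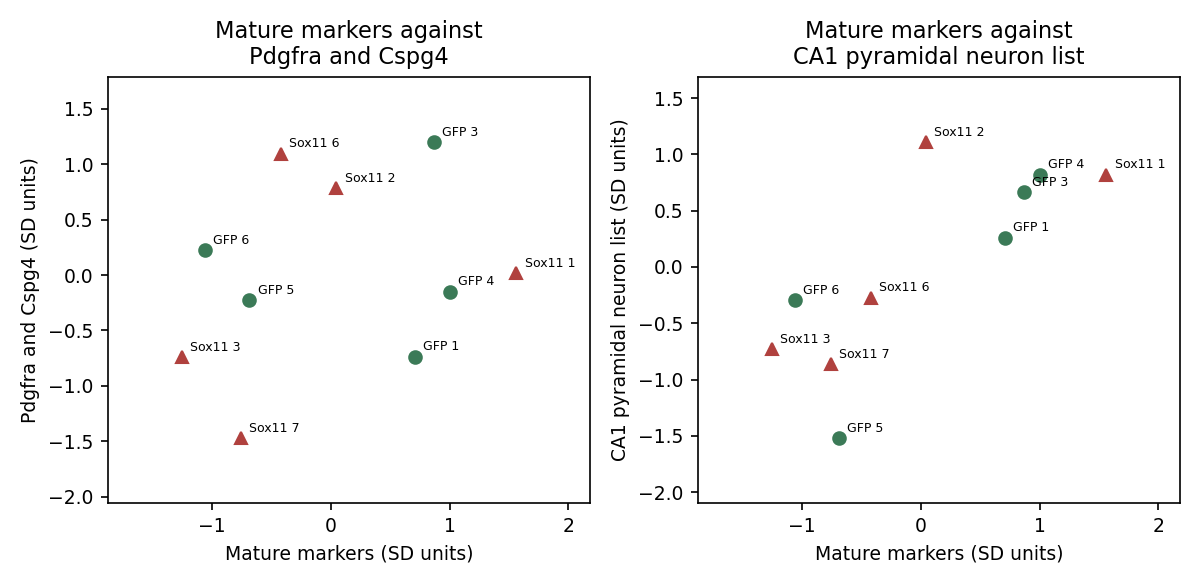
Mean standardized log2 level (SD units) of the 5 myelin genes on the horizontal axes, against that of Pdgfra and Cspg4 (left) and of the CA1 pyramidal neuron list (right), 1 labelled point per library, circles for GFP and triangles for Sox11. The points scatter on the left (r = 0.25), and on the right the same 5 libraries are highest in both measures (r = 0.78).

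The same measure was set against 19 gene lists, chosen after the variation between libraries had been seen, with p-values adjusted over the 19. The list of 20 other genes of mature oligodendrocytes had r = 0.95 with the 5 myelin genes (rho 0.88, adjusted permutation p = 0.00152), 8 junction and paranode genes r = 0.95 (rho 0.95, 0.00152) and 8 genes of myelin lipid synthesis r = 0.92 (rho 0.79, 0.00602). Without GFP 4 and Sox11 1 these were 0.95, 0.97 and 0.94. The list of 8 other transcription factors of the lineage had r = 0.82 (rho 0.85, 0.0188), and 0.68 without GFP 4 and Sox11 1. The 10 genes of committed and newly formed cells had r = 0.73 (adjusted permutation p = 0.0524) and rho = 0.76 (0.0412), and r = 0.82 without them. The list of 12 other precursor genes had r = -0.09 (rho -0.0061, adjusted permutation p = 0.864), and -0.48 without them. With Pdgfra and Cspg4 that list had r = -0.09 (rho 0.20, adjusted permutation p = 0.818 over 18 lists), and 0.51 without GFP 3 and Sox11 7, so its sign rested on those libraries. As means of their genes, the lists of other mature oligodendrocyte genes and of other transcription factors thus moved with the 5 myelin genes. Single genes on a list could differ, as did Zeb2, lowest in GFP 1 (14890 normalized counts) and highest in Sox11 7 (22065). The relation of the other precursor genes with Pdgfra and Cspg4 did not pass.

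Of the lists for other cell types, those for CA1 neurons and ependymal cells moved with the myelin genes and the others did not pass. The CA1 list, genes of the pyramidal neurons of a neighbouring hippocampal field, had r = 0.78 (rho 0.76, adjusted permutation p = 0.0368), and 0.70 without GFP 4 and Sox11 1. GFP 1, 3 and 4 and Sox11 1 and 2 were the 5 highest libraries in both. Of 7 listed CA1 genes 6 were found, none of them at 0 in any library, and they summed to 6135 to 19802 normalized counts under GFP and 7783 to 24261 under Sox11. Dcn, 1 of the 6, is also a fibroblast gene, and without it r was 0.83 (permutation p = 0.00523). Markers of ependymal cells, which line the ventricles, had r = 0.85 (rho 0.78, adjusted permutation p = 0.0188), and 0.83 without GFP 4 and Sox11 1, with sums of 317 to 1566 normalized counts under GFP and 352 to 1961 under Sox11. Of the 6 ependymal genes Tmem212, Ccdc153 and Mia were at 0 in at least 1 library. The granule neuron list had r = -0.43 (rho -0.19, adjusted permutation p = 0.339) and the astrocyte list r = -0.02 (rho 0.08, 0.956). All these relations pool the 2 groups, so a list whose genes differed between them mixes that difference with the variation between libraries. Called by limma were 2 granule neuron genes of 10 higher in Sox11 and 4 lower, beside 9.65% and 9.36% of all genes. Higher also were 4 of 12 astrocyte and 3 of 12 microglia genes, and 3 of 10 interneuron genes were lower. On the CA1 and ependymal lists 0 were called. The list for CA3, another neighbouring field of pyramidal neurons, had r = -0.27 (rho -0.32, adjusted permutation p = 0.557), and -0.78 without GFP 4 and Sox11 1. The choroid plexus list had r = 0.51 (rho 0.66, adjusted permutation p = 0.176), and 0.74 without them. Lists of vessel cells also rose without GFP 4 and Sox11 1. The endothelium list had r = 0.56 (rho 0.53, adjusted permutation p = 0.176), and 0.82 without them. The pericyte and fibroblast list had r = 0.43 (rho 0.37, adjusted permutation p = 0.339), and 0.67 without them.

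With the CA1 level of each library as a covariate, an analysis chosen after seeing the data, the log2 fold changes were -0.20 for Mbp, -0.15 for Mog, -0.13 for Mag, -0.20 for Mobp and -0.10 for Cnp. In that fit 0 of the 9 markers passed, against 20.8% of all genes (limma, lowest adjusted p of the 9 0.430). That fit gives only the difference between the groups, and the part of CA1 or ependymal tissue in the variation of the myelin genes was not tested. Of the 5 libraries high in both, GFP 1 and 3 and Sox11 1 and 2 bear column numbers from 1 to 3 and GFP 4 does not. What these numbers stand for is not stated, and with 1 to 3 against 4 to 7 as a covariate 0 of the 9 passed, against 23.8% of all genes (limma, lowest adjusted p of the 9 0.404).

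**Figure D4:**
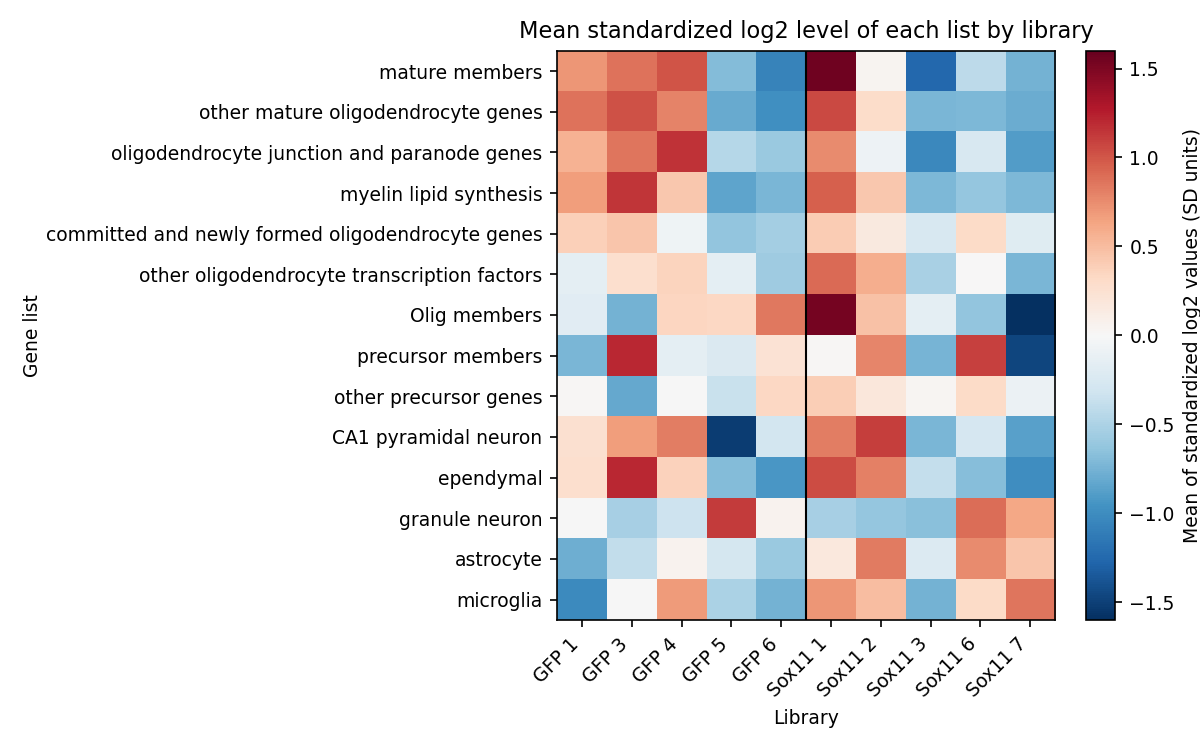
Mean standardized log2 level of 14 gene lists (rows) in each library (columns), with a line between the 5 GFP and the 5 Sox11 libraries and colour from low (blue) to high (red) in SD units. The rows of mature genes, CA1 neurons and ependymal cells are red in GFP 1, 3 and 4 and Sox11 1. Sox11 2 is at 1.11 for CA1 neurons and 0.80 for ependymal cells, and at -0.08 to 0.44 in the rows of mature genes. The rows of Olig factors and precursor genes do not share the pattern of GFP 1, 3 and 4 and Sox11 1.

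The genes whose pattern was most like that of the myelin markers were chosen by Pearson's r over the 10 libraries after each group's mean had been taken away, among the 14246 genes that averaged 50 normalized counts or more. Among the most alike were Mal (r = 0.99), a raft proteolipid of myelin, Pllp (0.98), another myelin proteolipid, Cntn2 (0.98), an adhesion protein of the axon and glia beside the node, and Erbb3 (0.98), a neuregulin receptor. All 4 were on the lineage lists. For Pdgfra and Cspg4 the most alike were Bphl (0.89), Sumf1 (0.89), Crlf3 (0.89), Tspan31 (0.88) and Gm15912 (0.87), none of which was on a lineage list. Of the exonic bases of Pllp, 54.2% lie under a gene on the other strand.

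Other genes of mature oligodendrocytes did not pass either, 0 of 20, where 19.0% of all genes did. Their median log2 fold change was -0.11, against -0.0063 over all tested genes. The median within-group SD of these 20 was 0.44, against 0.14 over all tested genes, which limits the precision. As a list they moved with the 5 myelin genes, so the 0 of 20 is not a separate observation. The 2 of lowest p were Sirt2, a deacetylase (0.10, SE 0.05, limma adjusted p = 0.207), and Qdpr, an enzyme of pterin metabolism (-0.17, SE 0.09, limma adjusted p = 0.216), which passed without Sox11 1 (adjusted p = 0.0431), the other omissions giving 0.171 to 0.391. Among 8 genes of myelin lipid synthesis 0 passed, with a median of -0.08. Elovl7, an enzyme of fatty acid elongation, was at 2686 normalized counts in GFP 3 and at 403 to 663 elsewhere, for a log2 fold change of -0.47 (SE 0.46), or 0.0028 without GFP 3. Ugt8a, which makes the galactolipids of myelin, ran from 749 to 1542 normalized counts (log2 fold change -0.19, SE 0.20).

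Of 12 other genes linked to precursors 2 rose in the Sox11 libraries and none fell, beside 9.65% of all genes that rose. Matn4, which encodes the matrix protein matrilin-4, had 489, 427, 449, 574 and 531 normalized counts under GFP and 918, 863, 1192, 940 and 901 under Sox11. Every Sox11 library lay above every GFP library, and the log2 fold change was 0.96 (SE 0.10, limma adjusted p = 0.000156). Emid1, another extracellular matrix gene, had 218, 221, 244, 246 and 246 against 316, 290, 304, 321 and 313 normalized counts, again with no overlap (log2 fold change 0.39, SE 0.07, limma adjusted p = 0.00358). The remaining 10 did not pass, among them Neu4 (-0.08, SE 0.08), Pcdh15 (-0.03, SE 0.08) and Vcan (0.20, SE 0.13). The lowest value of the list was that of Lhfpl3 (-0.20, SE 0.09, limma adjusted p = 0.142). The median log2 fold change of the list was 0.04. Whether Matn4 and Emid1 were raised in precursors or in other cells of the tissue was not tested.

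Genes of committed and newly formed oligodendrocytes differed in how far they ranged over the libraries. Bmp4 and Tcf7l2, also on this list, varied in a way of their own, which the closing section gives. Bcas1 (2328 to 5661 normalized counts) and Enpp6 (123 to 342), both of early myelinating cells, ranged 2.43- and 2.78-fold over the libraries, as the myelin genes did. Gpr17 (2279 to 3276), a receptor of cells just leaving the precursor stage, ranged 1.44-fold, near to Olig1. Of the 10 genes 2 rose and none fell, beside 9.65% and 9.36% of all genes. Mpzl1, a membrane protein that is not restricted to the lineage, rose from 1170 ± 32.9 to 1701 ± 125 normalized counts (SD, n = 5 each, log2 fold change 0.54, SE 0.05, limma adjusted p = 0.000101). Casr, the calcium-sensing receptor, rose from 23.7 ± 11.2 to 44.0 ± 9.94 (log2 fold change 0.96, SE 0.30, limma adjusted p = 0.0482), but its groups overlapped, and the call was lost in edgeR (adjusted p = 0.0661) and without GFP 4, 5 or 6 or Sox11 2, 3, 6 or 7 (adjusted p of 0.0819 to 0.112). It was lost too with no filter on low values (0.0591), without limma's trend and robust options (0.0571) and with the column numbers as a covariate (0.0503).

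Transcription factors of the lineage other than Olig1 and Olig2 did not pass, 0 of 8, where 19.0% of all genes did. Sox10, a Sox protein of all stages of the lineage, had 1242, 1068, 1089, 1046 and 1061 normalized counts under GFP and 1436, 1211, 1066, 975 and 863 under Sox11. The means of 1101 ± 80.1 and 1110 ± 222 (SD, n = 5 each) gave a log2 fold change of -0.0077 (SE 0.12, limma adjusted p = 0.980). Myrf, the activator of myelin genes, ran from 991 to 1717 normalized counts (-0.22, SE 0.16). The 2 of lowest p were Zeb2 (0.21, SE 0.09, limma adjusted p = 0.112), which passed without GFP 4 (0.0459, other omissions giving 0.0853 to 0.217) and with the column numbers 1 to 3 against 4 to 7 as a covariate (0.00961), and Sox8 (-0.15, SE 0.08, limma adjusted p = 0.221).

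Signals to the lineage gave 1 gene that rose and 1 that fell out of 18, and Adam23, a gene of axonal adhesion on the junction list, was the 1 of 8 that fell there. These shares lie near or below those over all genes, 9.65% higher and 9.36% lower, except for the 1 of 8. Pdgfa, the ligand that drives Pdgfra on precursors, had 1472 ± 80.0 and 1446 ± 149 normalized counts (SD, n = 5 each, log2 fold change -0.03, SE 0.07, limma adjusted p = 0.843), and 26.1% of its exonic bases lie under a gene on the other strand. Pdgfb, a ligand of both receptors for platelet-derived growth factor, fell from 1540 ± 83.2 to 1300 ± 156 (log2 fold change -0.25, SE 0.08, limma adjusted p = 0.0466). That call was lost in edgeR (adjusted p = 0.0704), with TMM scaling (0.0661), with no filter (0.0657), without limma's trend and robust options (0.0697) and without any 1 of GFP 1, 3, 5 and 6 and Sox11 1, 3, 6 and 7 (0.0632 to 0.101). Adgrg1, an adhesion receptor that acts in precursor division, rose from 2565 ± 139 to 3058 ± 280 without overlap (log2 fold change 0.25, SE 0.07, limma adjusted p = 0.0209). Adam23 fell from 6255 ± 464 to 5103 ± 142 without overlap (log2 fold change -0.29, SE 0.05, limma adjusted p = 0.00299).

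**Figure D5:**
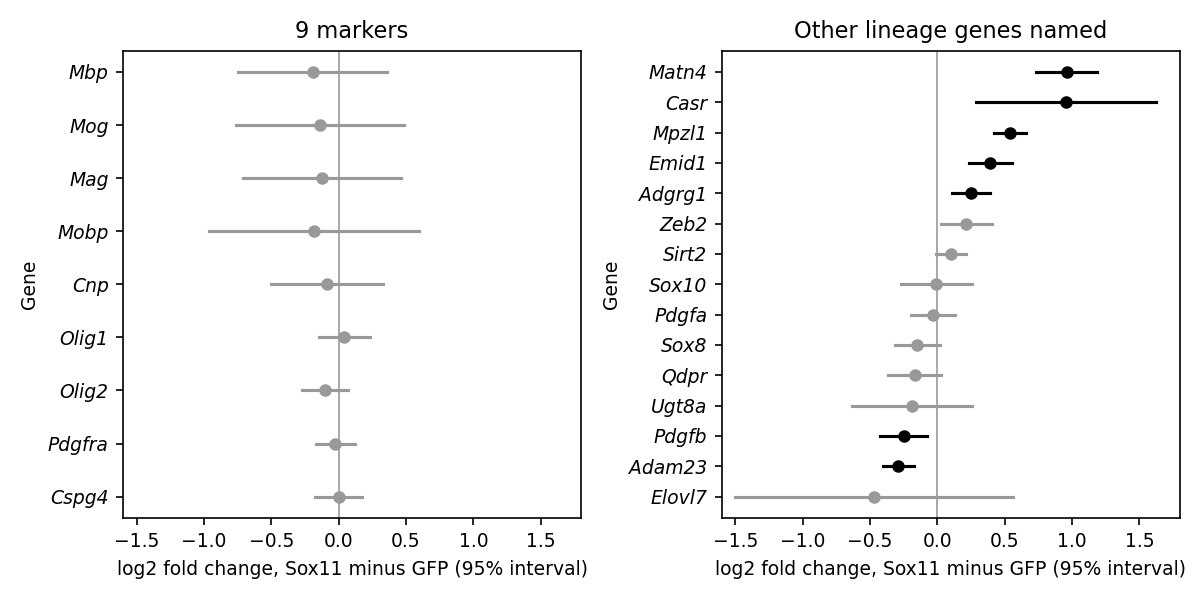
Log2 fold change, Sox11 minus GFP, with the 95% limma interval, for the 9 markers (left) and 15 other named genes of the lineage lists (right), black where the adjusted p was below 0.05 and grey otherwise. The 9 markers are grey, with intervals that narrow from the myelin genes to Pdgfra and Cspg4. Of the 15 others 7 are black. Each lineage list gene past the threshold is shown but few of the rest, so 7 of 15 is not the share over the lists.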

How the data were processed

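The deposited values are a signal, normalized counts, which the values show to be reads divided by 1 factor per library. For alignment and counting the submitters' processing notes name STAR 2.5.2a and featureCounts 1.5.1 with GRCm38, and for normalization tools DESeq2 1.12.3. Libraries came from a stranded mRNA kit, per the labels' protocols. No source used here gives the annotation release or the strand setting. All values (100%) were whole multiples, within 0.01 reads, of what 1 read is worth in the library, so reads were recovered. In Sox11 2 that value lies within 1% of 1, where rounding could also give multiples. The column numbers do not match the title numbers, so a column has a group and no sample. Since no label says that each library is a separate mouse, the p-values measure only the spread between libraries, which may be technical. The 20 pairs within groups differed beyond sampling noise (chi-square 11.6 to 99.8 per degree of freedom).

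Symbols, coordinates and exon lengths came from GENCODE M21, which matched 48144 identifiers. Genes averaging 10 normalized counts or more were tested as log2(normalized count + 1) with limma 3.58.1 (R 4.3.3, trend and robust options, Benjamini-Hochberg adjustment, threshold 0.05). As alternatives, the pseudocount was 0.5 or 8, the filter absent or at 50, and scaling by TMM, besides limma without trend and robust options, edgeR 4.0.16 and DESeq2 1.42.0 on recovered reads, covariates, and each library left out. The limma step was tested on simulated data. Correlations used 100000 permutations, two-sided. Of the exonic bases of the 9 markers at most 7.26% (Olig1) overlap a gene on the other strand and 1.15% (Mobp) a gene on the same strand, and at least 98.5% of their words of 31 bases are theirs alone.

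The 9 markers, the gene lists and the tests were chosen with earlier results of these data known. Named were the 9 markers, Sox11, Pdgfa and Sox10, each gene past the threshold on a lineage list or else its 2 of lowest p, and the 5 genes most like the myelin or precursor markers. The rule's 2 most abundant genes of each other cell type are given only within list sums, and 1 gene that the rule names is not reported here. The others (Prox1, Neu4, Pcdh15, Vcan, Lhfpl3, Bcas1, Enpp6, Gpr17, Myrf, and in the closing section Apod, Klk6, Bmp4 and Tcf7l2) were chosen after their values were seen. Python 3.11.15 with scipy 1.17.1 did the rest.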

Additional observations from a re-analysis of the deposited data

Results flagged for a closer look

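In 52 groups of 5 libraries (26 named genes in each of the 2 groups) 5 single libraries stood apart from the rest of their group by Dixon's criterion of gap over range at its 95% level, and chance alone gives about 1 in 20 groups. Sox11 was at 1634 normalized counts in GFP 5, against 1364 to 1399 in the other GFP libraries, and at 20434 in Sox11 3, against 9803 to 11591 in the other Sox11 libraries. Matn4 was at 1192 in Sox11 3, against 863 to 940. Sox10 was at 1242 in GFP 1, against 1046 to 1089, and Elovl7 at 2686 in GFP 3, against 403 to 663. None of the 9 markers had such a library.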

How the results depend on the processing

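None of the 9 markers passed under any of the 10 other settings or with any of the 10 libraries left out. The number of all genes called was 3234, between 2622 (no filter) and 4080 (DESeq2) under the other settings and 2487 to 3285 with 1 library left out. Of the relations across libraries only 2 were recomputed: r of myelin genes with precursor markers was 0.18 with TMM scaling and 0.11 to 0.37 with a library left out, and r with the CA1 list 0.77 and 0.75 to 0.85. The adjusted p-values of the CA1 relation were not recomputed (unadjusted permutation p up to 0.0235). Values near 0 changed sign. Cspg4 turned to 0.0067 with TMM scaling, 0.013 in edgeR and 0.0055 in DESeq2, and Sox10 to 0.00014, 0.022 and 0.014 (log2 fold changes), and the cause was not tested. With 1 library left out the log2 fold change ran from -0.43 to 0.017 for Mobp, -0.020 to 0.12 for Olig1, -0.064 to 0.019 for Pdgfra, -0.044 to 0.059 for Cspg4, -0.060 to 0.033 for Pdgfa, -0.11 to 0.078 for Sox10 and -0.68 to 0.0028 for Elovl7. No paired analysis was possible because the numbers of the columns do not match those of the sample titles. The within-group SD of the myelin genes, 0.33 to 0.60 on the log2 scale, limits the precision of their fold changes, and the effect of read depth was not tested.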

Other observations

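Some genes on the lineage lists varied over the libraries in a way of their own. Apod, a lipocalin made by oligodendrocytes and by fibroblasts, had 10440, 11983, 5141, 2073 and 1904 normalized counts in GFP 1, 3, 4, 5 and 6 and 4620, 10034, 7563, 2633 and 3102 in Sox11 1, 2, 3, 6 and 7. Bmp4, a signal of newly committed cells, was at 287, 396, 111, 55.9 and 59.2 under GFP and at 99.8, 206, 219, 64.5 and 76.2 under Sox11. Both genes were highest in GFP 1 and 3 and Sox11 2 and 3, although Sox11 3 was the library lowest in Mbp. Summed markers of pericytes and fibroblasts were also highest in these 4, at 20742 and 27652 under GFP and 23459 and 18801 under Sox11, and their part was not tested. Tcf7l2, a transcription factor of newly formed oligodendrocytes, stood at 1661 in GFP 1 and at 133 to 685 elsewhere. Klk6, a protease of mature oligodendrocytes, ran from 1.22 in Sox11 6 to 77.3 in GFP 1. None of these 4 passed the limma test (adjusted p of 0.983, 0.890, 0.779 and 0.334), and their values are given with no explanation.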
